A study of Mus musculus with 6 samples.

Results

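Astrocytes wrap the blood vessels of the brain with endfeet, flat processes that press against the vascular basement membrane. The endfoot membrane is packed with the water channel Aqp4, which a scaffold of dystrophin and its partners holds in place, and dystroglycan links that scaffold through the membrane to laminin and agrin in the matrix. The membrane protein Mlc1 and its adhesion partner Hepacam sit at the contacts between endfeet, and the cotransporter Slc4a4 moves sodium and bicarbonate across the same membrane. The genes described here are 9 genes of this structure, found by their symbols among 24421 genes listed in every library: Aqp4 (the water channel), Mlc1 and Hepacam (the junction proteins), Dmd, Dtna and Dag1 (dystrophin, alpha-dystrobrevin and dystroglycan), Lama2 and Agrn (the laminin alpha 2 chain and agrin) and Slc4a4. They were picked by function but with earlier results of these data known, and all 9 were measured in all 6 libraries.

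The libraries came from adult male mice, 3 control and 3 Sox9 KO, with 1 library per mouse. All 6 mice had received AAV-GFAP-iCre-P2a-TurboRFP in the olfactory bulb, a virus in which the GFAP promoter drives both the Cre recombinase and the red fluorescent protein TurboRFP. In Sox9 fl/fl mice Cre deletes the floxed part of Sox9, a transcription factor of astrocytes. Control mice had no floxed allele, and the study calls them C57BL/6J or Sox9+/+. Cells with TurboRFP were sorted 4 weeks after the injection from dissociated bulbs, and libraries were made from 10 ng of total RNA. The RNA was that of whole sorted cells, so the values do not single out endfeet. Values are normalized counts, reads per gene divided by a size factor of the library.

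The libraries held between 18242129 and 86906527 reads on genes. Sox9 was counted with 3122 to 9535 reads in the control libraries and with 38 to 163 in the Sox9 KO libraries. Astrocyte markers were abundant in control, and their sum (9 genes, Sox9 among them) was 8.07-fold lower in Sox9 KO. Markers of other cells moved too. Microglia markers summed to between 135000 and 159880 normalized counts in control and between 469020 and 564790 in Sox9 KO. Of these 8 of 8 were higher, and neuron markers fell in 7 of 8. The sum of oligodendrocyte precursor markers was 11.2-fold lower (5 of 5 fell), and that of ependymal markers 7.24-fold lower (2 of 5). The ependymal sum was mostly Foxj1, with a mean of 926 in control and 103 in Sox9 KO. Border macrophage markers summed 6.17-fold higher, though 3 of 5 fell and 2 rose. That rise came mostly from Cd74, with a mean of 2521 in control and 89713 in Sox9 KO. Of all genes tested, 28.8% were called lower and 22.2% higher. In bulk samples, fewer cells of a type and less RNA per cell cannot be told apart. The part of these cell types in the results below was not tested.

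**Figure D1:**
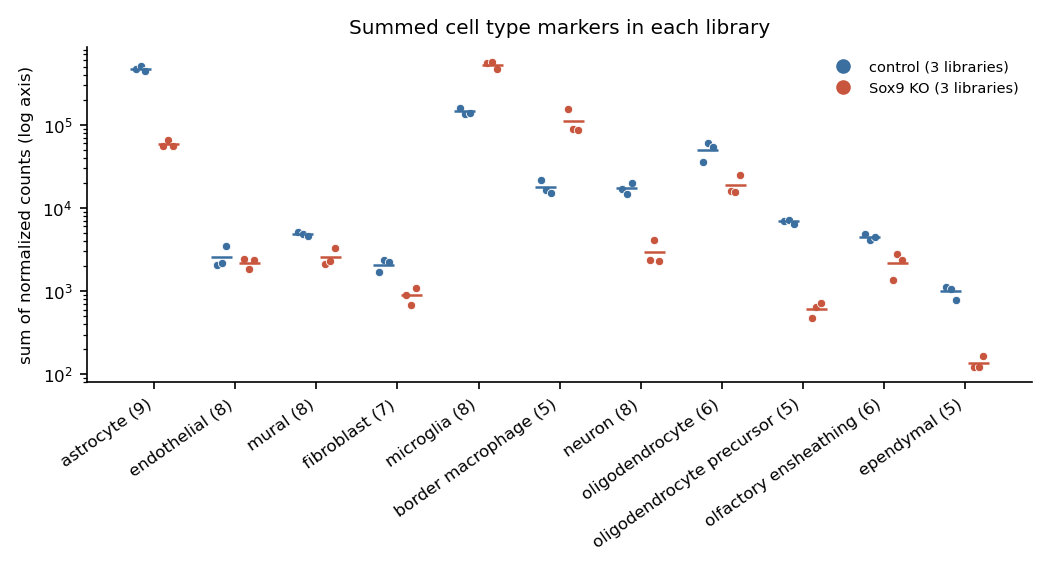
Summed normalized counts of cell type markers (log axis, number of genes in brackets) in each control and Sox9 KO library, with a line at the mean of each group. Astrocyte markers lie between 448570 and 502510 in control and between 55068 and 65178 in Sox9 KO, while microglia markers are higher in every Sox9 KO library.

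All 9 endfoot genes were lower in Sox9 KO, from 4.10-fold for Agrn to 19.4-fold for Mlc1. Each passed an adjusted p of 0.05 and 1.5-fold in limma (9 of 9 lower), where 28.8% of the 18413 genes tested were called lower, 22.2% higher and 51% either way. In all 9 every Sox9 KO library lay below every control library, as it did in 34.7% of the genes tested, with the opposite in 32.4%. The median log2 fold change of Sox9 KO over control was −3.20 for the 9 genes and −0.07 for all genes tested. Even the least covered of them, Lama2 in Sox9 KO replicate 3, was counted with 159 reads.

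**Figure D2:**
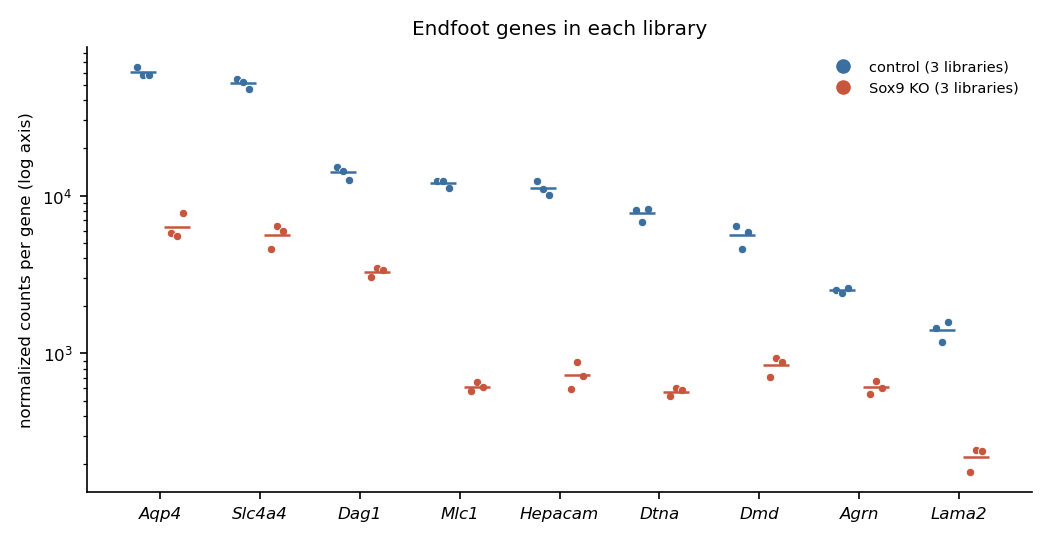
Normalized counts (log axis) of the 9 endfoot genes in the 3 control and 3 Sox9 KO libraries, 1 point per library, with a line at the group mean. In each gene the Sox9 KO points lie below the control points, and the counts are not scaled to length, so that genes are not to be ranked against each other here.

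Aqp4 forms the water pores of the endfoot membrane. The gene lies on chromosome 18 of GRCm38 (mm10), from 15389394 to 15410982 on the minus strand. Its values were 64946, 58274 and 57972 normalized counts in control replicates 1, 2 and 3 and 5772, 5513 and 7770.5 in Sox9 KO replicates 1, 2 and 3. The groups were far apart, and the highest Sox9 KO library, replicate 3, stayed well under the lowest control. Mean levels were 60397 ± 3942 in control and 6352 ± 1236 in Sox9 KO (SD, n = 3 each), so that 10.5% of the control level remained. The log2 fold change was −3.26 (standard error 0.13, 95% interval −3.56 to −2.97, limma p, Benjamini-Hochberg adjusted, 2.5e-08).

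Of 11 other aquaporin genes listed, 8 had a mean of at least 1 normalized count and were tested, of which 2 fell and 0 rose, beside 28.8% of all genes tested that were called lower. The falls were those of Aqp9, which also passes glycerol, with 112 to 174 normalized counts in control and 12.9 to 27.3 in Sox9 KO (log2 fold change −3.03, limma adjusted p = 5.1e-05), and of the intracellular Aqp11 (−1.53, limma adjusted p = 0.00025). Aqp1, the water channel of the choroid plexus, had 523, 383 and 471 normalized counts in control and 247, 510 and 328 in Sox9 KO. These groups overlapped (adjusted p = 0.18 from limma), and without Sox9 KO replicate 2 the fold change of Aqp1 became −0.68 and passed. Aqp3 was close to 0 except in Sox9 KO replicate 3, at 63.8 normalized counts, without which it would count as lower (−2.61, adjusted p = 0.012 from limma).

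Mlc1 and Hepacam, whose proteins bind each other at endfoot junctions and are known from leukodystrophies with brain cysts, had the lowest fold changes of the 9. Mlc1 (chromosome 15, 88955884 to 88982693, minus strand) had 12399, 12363 and 11152 normalized counts in control and 578, 655 and 615 in Sox9 KO. The libraries of each group lay close together, and the gap between the groups was many times their spread. The means of Mlc1 were 11971 ± 710 and 616 ± 38.4 (SD, n = 3 each), and the log2 fold change was −4.28 (standard error 0.09, 95% interval −4.48 to −4.07, adjusted p = 2.5e-09 from limma). Only 1.43% of the genes tested had a fold change as low or lower.

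Hepacam (chromosome 9, 37367356 to 37386572, plus strand) had 12350, 10935 and 10018 normalized counts in control and 596, 879 and 720 in Sox9 KO. Again all Sox9 KO libraries were low, with replicate 1 the lowest. Its means of 11101 ± 1174 and 732 ± 142 (SD, n = 3 each) gave a log2 fold change of −3.93 (standard error 0.14, 95% interval −4.25 to −3.62, adjusted p = 1.3e-08 from limma). The ratio of Mlc1 to Hepacam normalized counts in control lay between 1.00 and 1.13. In Sox9 KO the ratio was between 0.745 and 0.970, below every control, a shift of −0.34 on the log2 scale with an exact permutation p of 0.10 (two-sided, BH-adjusted 0.109 over 12 ratios), the smallest that 3 libraries against 3 allow.

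Genes known to act with Mlc1 or Hepacam, listed together with the Hepacam relative Hepacam2, moved in both directions. Of 12 tested, 6 fell and 2 rose, beside 28.8% and 22.2% of all genes tested. Their median log2 fold change was −1.01. Gpr37l1, an orphan receptor of astrocytes that binds this complex, had 20760, 21167 and 16314 normalized counts in control and 615.5, 831 and 881 in Sox9 KO. The groups were far apart, and Gpr37l1 fell by 4.65 on the log2 scale (adjusted p = 8.5e-09 from limma). The chloride channel Clcn2, which Hepacam recruits to cell junctions, fell by 3.20, and Atp1b1, a beta subunit of the sodium pump, fell by 2.44. Of the volume-regulated anion channel, the obligatory subunit Lrrc8a fell by 0.86, while Lrrc8d was 0.44 higher and did not reach 1.5-fold.

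Trpv4, an osmosensitive calcium channel reported in endfeet, went the other way. It had 161, 111 and 83.5 normalized counts in control and 589, 586 and 319 in Sox9 KO, with every Sox9 KO library higher (log2 fold change 2.06, adjusted p = 0.00014 from limma). Hepacam2, a relative of Hepacam, passed at a low level with overlapping groups (log2 fold change 1.55, adjusted p = 0.044 from limma). That call was lost without any 1 of control replicates 1, 2 and 3 or Sox9 KO replicates 2 and 3, with adjusted p-values from 0.077 to 0.18. Microglia markers were 3.66-fold higher in the same Sox9 KO libraries, and 22.2% of all genes tested were called higher. Whether the rise of Trpv4 is tied to microglia was not tested.

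The dystrophin scaffold was lower in all 3 of its members, by unequal amounts. Dtna (chromosome 18, 23310006 to 23659719, plus strand) encodes alpha-dystrobrevin, a dystrophin relative that binds syntrophins. It had 8118, 6840 and 8223 normalized counts in control and 533, 601 and 585 in Sox9 KO. The Sox9 KO libraries were close together and far below the lowest control. The means of Dtna were 7727 ± 770 and 573 ± 35.6 (SD, n = 3 each), and the log2 fold change was −3.75 (standard error 0.10, 95% interval −3.98 to −3.52, adjusted p = 4.4e-09 from limma).

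Dmd (chromosome X, 82814664 to 85205050, plus strand) encodes dystrophin, of which brain glia mainly make the short Dp71 form. It had 6424, 4583 and 5865 normalized counts in control and 706, 933 and 886 in Sox9 KO. Control replicate 2 was the lowest control in both Dtna and Dmd, and it was still far above Sox9 KO. The means of Dmd were 5624 ± 944 and 841 ± 120 (SD, n = 3 each), with a log2 fold change of −2.74 (standard error 0.15, 95% interval −3.06 to −2.41, adjusted p = 1.2e-07 from limma). The values hold 1 number per gene, so that the dystrophin forms cannot be separated. The ratio of Dtna to Dmd was between 1.26 and 1.49 in control and between 0.645 and 0.756 in Sox9 KO, with no overlap (−1.01 on the log2 scale, exact permutation p = 0.10, BH-adjusted 0.109).

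Dag1 (chromosome 9, 108204861 to 108263977, minus strand) encodes both subunits of dystroglycan, the receptor that ties dystrophin to the matrix. Its 15240, 14264 and 12547 normalized counts in control stood against 3039, 3463 and 3394 in Sox9 KO. The groups did not overlap, but Sox9 KO kept more of Dag1 than of the scaffold genes, 23.5% against 7.42% for Dtna and 15.0% for Dmd. The means were 14017 ± 1364 and 3298.5 ± 228 (SD, n = 3 each), and the log2 fold change was −2.08 (standard error 0.10, 95% interval −2.31 to −1.86, adjusted p = 5.9e-08 from limma). Relative to Dmd, Dag1 was higher in each Sox9 KO library (ratio 3.71 to 4.30) than in each control (2.14 to 3.11), a log2 shift of 0.65 (exact permutation p = 0.10, BH-adjusted 0.109).

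Other genes of the dystrophin-associated complex were tested as a list. Of 14 tested, 8 fell and 1 rose, beside 28.8% and 22.2% of all genes tested. The list had a median log2 fold change of −0.62. The sarcoglycan gene Sgce rose, with 856, 913 and 914 normalized counts in control and 1907, 2105 and 1695 in Sox9 KO (log2 fold change 1.08, adjusted p = 1.0e-05 from limma). Utrophin (Utrn), the paralog that can stand in for dystrophin, was at −0.45 and Sgcb at −0.38, and both stayed short of 1.5-fold. With libraries scaled to the same total, with or without Rn45s, or by quantiles, both passed, Utrn at −0.77 to −0.65 and Sgcb at −0.71 to −0.62. The syntrophin Sntb2 fell by 0.62, a call that was lost without any 1 of control replicates 1 and 2 and Sox9 KO replicates 1 and 2 (adjusted p from 0.0515 to 0.0775 in limma).

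Dystroglycan binds laminin and agrin only when enzymes of the Golgi and endoplasmic reticulum have built its sugar chain. Of 13 such genes, 6 fell and 0 rose, beside 28.8% and 22.2% of all genes tested. The median log2 fold change was −0.64. Pomt2, which adds the first mannose, fell by 1.25 (adjusted p = 4.0e-06 from limma). Tmem5, which extends the chain, fell by 0.66, a call that was lost without control replicate 1 (−0.55) because the change no longer reached 1.5-fold. Large, whose enzyme makes the repeat that laminin recognises, was 0.56 higher, short of 1.5-fold, and passed without control replicate 1 (0.59) or without Sox9 KO replicate 3 (0.68).

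The matrix ligands of dystroglycan are represented by Lama2 and Agrn. Lama2 (chromosome 10, 26981285 to 27617191, minus strand) encodes the alpha chain of laminin-211, the laminin of the astrocytic side of the vascular basement membrane. It had 1439, 1183 and 1573 normalized counts in control and 177, 244 and 242 in Sox9 KO. The Sox9 KO libraries were all low, with replicate 1 the lowest. The means of Lama2 were 1398.5 ± 198 and 221 ± 38.03 (SD, n = 3 each), with a log2 fold change of −2.66 (standard error 0.17, 95% interval −3.03 to −2.29, adjusted p = 3.3e-07 from limma).

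Agrn (chromosome 4, 156165290 to 156197533, minus strand) encodes agrin, a heparan sulfate proteoglycan known for clustering dystroglycan and Aqp4. It had 2512, 2409 and 2596 normalized counts in control and 555, 671.5 and 608 in Sox9 KO. Agrn had the tightest control values of the 9 genes and the smallest change. Its means were 2506 ± 93.9 and 611 ± 58.4 (SD, n = 3 each), so that 24.4% remained, and the log2 fold change was −2.04 (standard error 0.11, 95% interval −2.27 to −1.80, adjusted p = 9.6e-08 from limma). The ratio of Lama2 to Agrn was 0.491 to 0.606 in control and 0.320 to 0.398 in Sox9 KO (log2 shift −0.63, exact permutation p = 0.10, BH-adjusted 0.109).

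The DNA next to the RefSeq 5' end is shown for Agrn and Dag1. Of the 9 genes, only these had a RefSeq promoter with more than 1 base outside the bounds of the gene. They also had the smallest changes of the 9, and a link between sequence and change was not tested. The RefSeq promoter of each gene was trimmed to the bases outside the bounds of the gene, 205 for Agrn at chr4:156197534-156197738 and 231 for Dag1 at chr9:108263978-108264208 of GRCm38.p6, both on the minus strand. Of these bases 84.4% are G or C in Agrn, with 28 CpG, and 65.8% in Dag1, with 18 CpG. Capitals mark CTTTGT, the reverse complement of ACAAAG.
Agrn: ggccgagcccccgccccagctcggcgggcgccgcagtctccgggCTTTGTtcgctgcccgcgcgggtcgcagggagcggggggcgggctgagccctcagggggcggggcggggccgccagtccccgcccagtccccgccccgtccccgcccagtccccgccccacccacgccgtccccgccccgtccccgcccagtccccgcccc
Dag1: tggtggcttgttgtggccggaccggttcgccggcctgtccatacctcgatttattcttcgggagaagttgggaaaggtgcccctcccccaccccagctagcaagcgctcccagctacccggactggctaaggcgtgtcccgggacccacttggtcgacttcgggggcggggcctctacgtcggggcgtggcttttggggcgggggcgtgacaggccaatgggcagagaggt

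SOX proteins bind short motifs such as AACAAT, the related ACAATG, and the motif ACAAAG. These letters were searched on both strands of the RefSeq promoters (250 bases before to 50 after a start), of which 11 belong to 7 of the genes (Mlc1, Hepacam, Dag1, Dmd, Lama2, Agrn and Slc4a4). At least 1 motif was present in 3 of the 11, and in 33.2% of all 32817 promoters (10.7% held AACAAT, 12.6% held ACAATG and 18.7% held ACAAAG). The matches were ACAAAG on the minus strand at −206 and at −47 of the promoters of Agrn and on the plus strand from position 1 of Hepacam. Mlc1, the gene with the lowest fold change of the 9, had none in its window. The starts are those of single transcripts, and in 7 of the 11 promoters, that of Mlc1 among them, the 250 bases lie wholly inside the RefSeq bounds of the gene, so that the DNA before its outermost start was not searched.

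Other basement membrane genes were tested as a list of 16 (median log2 fold change −0.81). Among them 9 fell and 0 rose, beside 28.8% and 22.2% of all genes tested. Lama5, the alpha chain of an endothelial laminin, had 1369, 994 and 826 normalized counts in control and 47.7, 31.6 and 66.8 in Sox9 KO. It fell by 4.45 on the log2 scale (adjusted p = 3.8e-07 from limma), and the difference from Lama2 was not tested. Lamb2, a laminin beta chain, fell by 2.31, while the shared gamma chain Lamc1 and the nidogen Nid1 fell by 0.90 and 0.87. Mural cell markers summed to between 4647 and 5154 normalized counts in control and between 2144 and 3300 in Sox9 KO, fibroblast markers to between 1680 and 2351 and between 687 and 1095, and endothelial markers overlapped at 2078 to 3501 and 1835 to 2428. No marker of these 3 lists was at 0 in every library. Called lower were 5 of 8 mural, 1 of 7 fibroblast and 4 of 8 endothelial markers, beside 28.8% of all genes tested. Called higher were 1, 0 and 2, beside 22.2%.

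Proteins that share dystroglycan or agrin as a partner numbered 9 (median log2 fold change −1.29). Among them 6 fell and 0 rose, beside 28.8% and 22.2% of all genes tested. The neurexins Nrxn2 and Nrxn3, of a family that binds dystroglycan at synapses, fell by 3.86 and by 3.25. Lrp4, the agrin receptor, fell by 1.29 (adjusted p = 9.9e-06 from limma). Neuron markers were 5.85-fold lower in the same Sox9 KO libraries, with sums of 14844 to 19890 in control and of 2288 to 4131 in Sox9 KO. Astrocyte markers were 8.07-fold and oligodendrocyte precursor markers 11.2-fold lower. The part of any of these cell types in the falls of this list was not tested.

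Slc4a4 (chromosome 5, 88793858 to 89239656, plus strand) encodes the electrogenic sodium bicarbonate cotransporter of astrocytes. It had 54913, 52361 and 47255 normalized counts in control and 4613, 6371.5 and 6001 in Sox9 KO. As with Aqp4, the groups were separated by a wide gap. The means were 51510 ± 3899 and 5662 ± 927 (SD, n = 3 each), and the log2 fold change was −3.20 (standard error 0.13, 95% interval −3.48 to −2.91, adjusted p = 2.4e-08 from limma).

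Of 19 other genes of bicarbonate and proton handling, 14 fell and 2 rose, beside 28.8% and 22.2% of all genes tested. Their median log2 fold change was −2.42. The carbonic anhydrase Car2, which makes bicarbonate, had 5622, 6831 and 5421 normalized counts in control and 770, 766 and 1101 in Sox9 KO (log2 fold change −2.77). The sodium-driven exchanger Slc4a8 fell by 3.39. A second sodium bicarbonate cotransporter, Slc4a7, rose from 2063, 2056 and 1865 normalized counts in control to 3599, 3969 and 3754 in Sox9 KO (log2 fold change 0.92, limma adjusted p = 8.1e-06), and the carbonic anhydrase Car13 rose 2.75-fold.

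**Figure D3:**
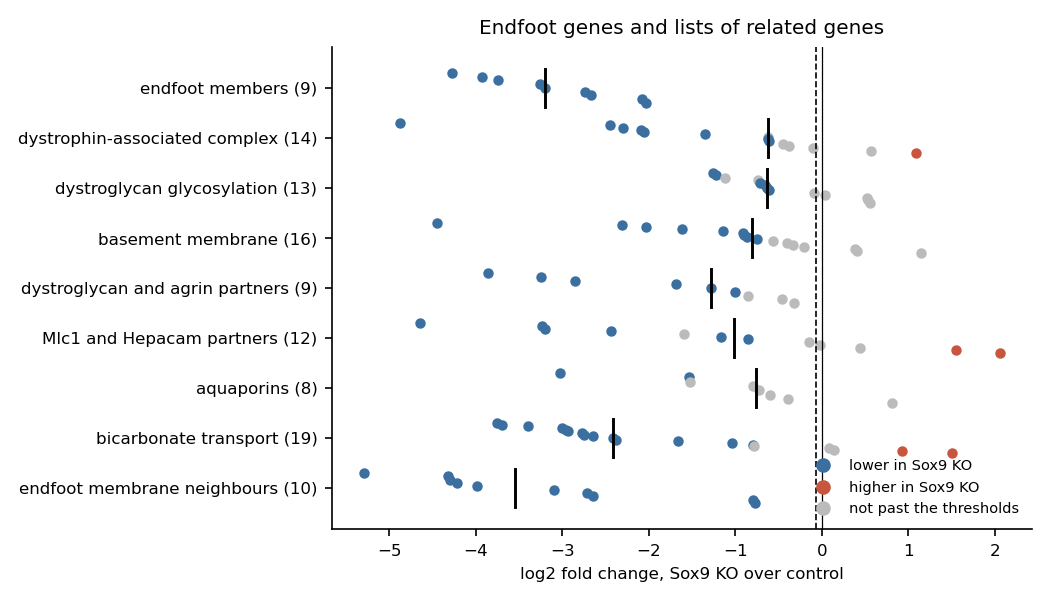
Log2 fold change (Sox9 KO over control) of the 9 endfoot genes and of the tested genes of 8 related lists, 1 point per gene, coloured by the limma call, with a bar at each median and a dashed line at the median of all genes tested. The endfoot genes lie between −4.28 and −2.04, while most lists also hold genes near or above 0.

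Over the 8 related lists, 101 genes were tested, of which 61 fell and 5 rose, set beside the 28.8% and 22.2% of all genes tested. The list of 10 other membrane proteins of endfeet was lower throughout (10 of 10, median log2 fold change −3.54), and it shares Slc1a2, Slc1a3 and Gja1 with the astrocyte markers. The glutamate transporters Slc1a2 and Slc1a3 fell by 4.30 and by 2.72, and the potassium channel Kcnj10, which lies beside Aqp4 in endfeet, by 2.64. The ratio of Aqp4 to Kcnj10 was 0.886 to 1.11 in control and 0.567 to 0.810 in Sox9 KO (log2 shift −0.62), and that of Slc4a4 to Kcnj10 shifted by −0.55. Each of these ratios had an exact permutation p of 0.10 (BH-adjusted 0.109).

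Levels of the genes can be set side by side only per length of exon. In control, per kilobase of exon, Aqp4 was highest with 9690 ± 632 normalized counts (SD, n = 3), followed by Slc4a4 with 4763 ± 360 and Mlc1 with 4274 ± 254, which overlapped. Hepacam (3317 ± 351) and Dag1 (2205 ± 214) came next. Dtna (456 ± 45.5), Agrn (270 ± 10.1), Dmd (236 ± 39.7) and Lama2 (85.6 ± 12.1) were far lower, with Agrn and Dmd overlapping. In Sox9 KO Aqp4 was still highest per kilobase, at 1019 ± 198, and Lama2 lowest, at 13.5 ± 2.33.

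The order between them changed. Per kilobase, Dag1 came up beside Slc4a4 in Sox9 KO, with 519 ± 35.8 against 524 ± 85.7, and was above Mlc1 and Hepacam (220 ± 13.7 and 219 ± 42.5). Dtna, which was above Agrn and Dmd in control, lay below Agrn and overlapped Dmd (33.9 ± 2.10 against 35.4 ± 5.03) in Sox9 KO. Exon lengths are the union over all GENCODE transcripts of a gene, 23.8 kb for Dmd and 16.9 kb for Dtna, so a gene read mainly as a short form is placed too low on this scale.

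**Figure D4:**
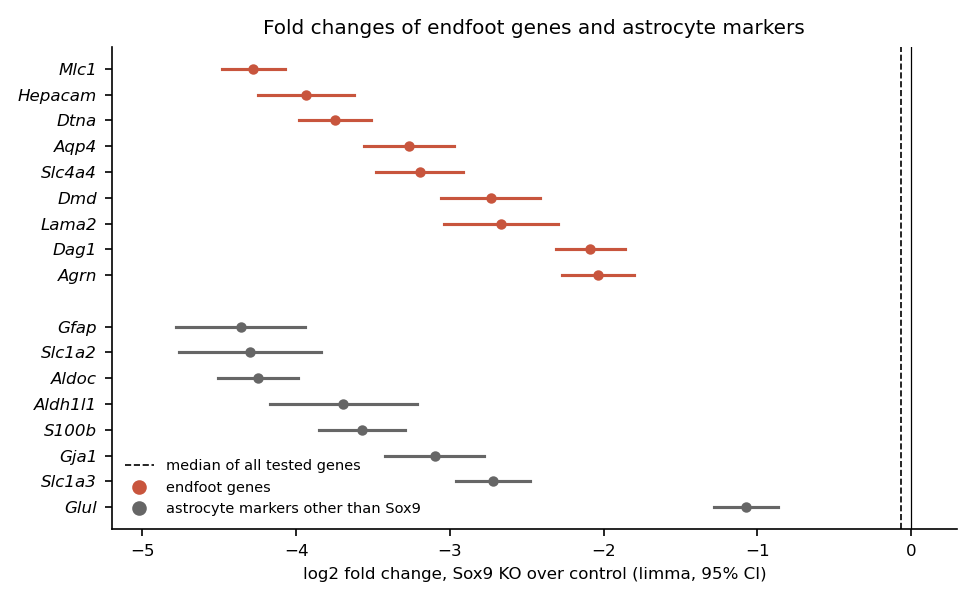
Log2 fold change of Sox9 KO over control with its 95% interval in limma, for the 9 endfoot genes and for 8 astrocyte markers other than Sox9, with a dashed line at the median of all genes tested. Every interval lies below 0, and the endfoot genes span from −4.28 (Mlc1) to −2.04 (Agrn), within the range of the markers.

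Neighbours in the order of fold change were compared by their ratio within each library, as a description, since the order itself sets the direction. The ratios of Mlc1 to Hepacam, of Dtna to Aqp4, of Slc4a4 to Dmd and of Lama2 to Dag1 were lower in every Sox9 KO library than in every control. Those of Hepacam to Dtna, Aqp4 to Slc4a4, Dmd to Lama2 and Dag1 to Agrn overlapped between the groups, so that these neighbours were not separated by the spread between libraries. The ratio of Dag1 to Agrn, the receptor and its ligand, was 4.83 to 6.07 in control and 5.15 to 5.58 in Sox9 KO (log2 shift −0.05, exact permutation p = 0.70), and the shift lay between −0.15 and 0.01 with each library left out in turn, 0.01 without control replicate 1. The ratio of Aqp4 to Mlc1 went from between 4.71 and 5.24 in control to between 8.41 and 12.6 in Sox9 KO (log2 shift 1.01, exact permutation p = 0.10, BH-adjusted 0.109).

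The fall of the endfoot genes can also be read against the astrocyte markers of the same library. Among 8 markers other than Sox9, log2 fold changes ran from −4.36 for Gfap to −1.07 for glutamine synthetase (Glul). Of the 8 markers, 5 fell more than Aqp4 and more than Slc4a4, 2 more than Mlc1, 3 more than Hepacam and Dtna, 6 more than Dmd and 7 more than Lama2, Dag1 and Agrn. With each library scaled to the geometric mean of these 8 markers, Aqp4 was 0.12 higher in Sox9 KO on the log2 scale (adjusted p = 0.46 from limma) and Slc4a4 0.19 higher (adjusted p = 0.18), both with overlapping groups. On that scale Mlc1 alone of the 9 was called lower, at −0.90, while Hepacam (−0.55) and Dtna (−0.37) passed the adjusted p of 0.05 but not 1.5-fold. Dag1 (1.30), Agrn (1.34), Lama2 (0.71) and Dmd (0.65) were called higher. This scaling was chosen after the data had been seen.

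**Figure D5:**
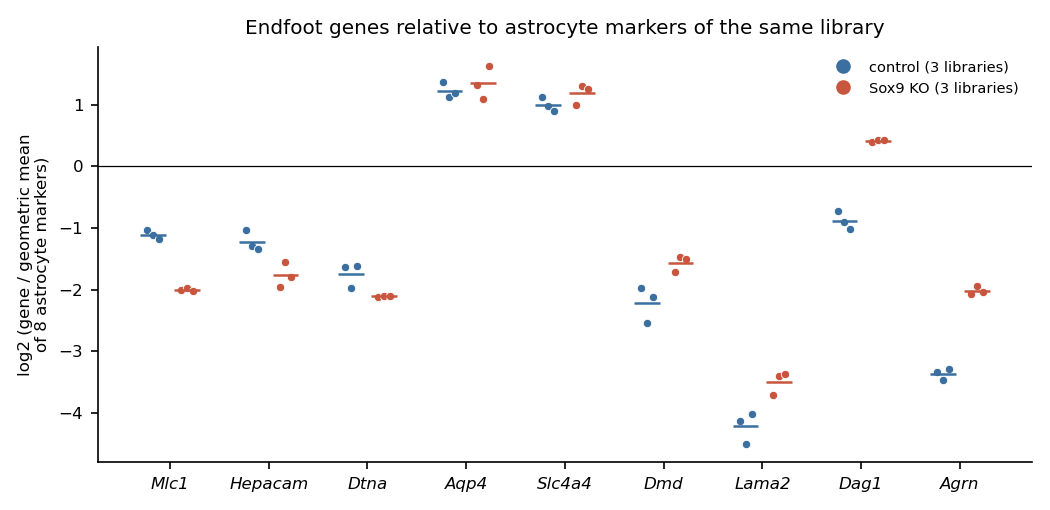
Log2 ratio of each endfoot gene to the geometric mean of 8 astrocyte markers in the same library, for 3 control and 3 Sox9 KO libraries, with a line at each group mean. Mlc1, Hepacam and Dtna are lower in every Sox9 KO library, Aqp4 and Slc4a4 overlap, and Dmd, Lama2, Dag1 and Agrn are higher in every Sox9 KO library.

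For each endfoot gene, the genes with the most similar profile over the 6 libraries were ranked by the root mean square distance on the log2 scale, among 11917 genes with a mean of at least 100 normalized counts. With 2 groups far apart, this distance mostly ranks genes by an equal fold change, and it is given as a description. Nearest to Aqp4 were Pcyt1b (distance 0.047), Rundc3a (0.062) and Cacng5 (0.067), and nearest to Mlc1 were Ppp1r3c (0.060), Acsl6 (0.079) and Acot11 (0.080). The nearest to Hepacam were Pcdh10, Prnp and Elovl2, at 0.069 to 0.081, and those to Slc4a4 were Timp3 (0.054), Fndc4 and Rftn2. Dtna was nearest to Bmpr1b (0.064), Dlgap1 and Fam184a, and Dmd to Acsl3 (0.079), Akap6 and Cfap44. The closest pair of all was Dag1 with Aldh7a1 (0.020), ahead of Gpd2 and Ampd2. Lama2 was nearest to Zfp651 (0.070), Tro and Ddit4, and the genes nearest to Agrn included Acat3 (0.065) and Ampd2 (0.067), the latter shared with Dag1. The profile nearest to Agrn of all (0.056) stands in the files under a symbol that a spreadsheet had turned into a date.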

How the data were processed

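RNA-seq libraries of sorted TurboRFP-positive olfactory bulb cells, 3 control and 3 Sox9 KO, were compared. The authors aligned reads to mm10 with STAR 2.5.0a, counted them per gene in R and normalized them with DESeq2 1.20.0. Which gene annotation was used, and whether counting was stranded, was not given in any source used here. Dtna and Lama2 each share exon sequence with an antisense gene. The deposited signal values are named RPM, but in each library 100% of them could be written as a whole number of steps (within 0.01 read), and that step was the inverse of a median-of-ratios size factor. They are therefore read counts divided by 1 factor per library, called normalized counts. A read was worth 0.395 to 1.58 of them, and 17734 to 18625 genes were above 0.

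Genes with a mean of at least 1 (18413 of 24421) were tested on log2(value + 1) by limma 3.58.1 (R 4.3.3), with a variance trend and two-sided p-values adjusted by Benjamini-Hochberg over all genes tested. The pseudocount slightly understates changes of low genes. A gene was called at an adjusted p of 0.05 and 1.5-fold, and "fell" or "rose" is used of called genes. Ratios were compared by exact permutation tests. The scripts were tested on simulated data in which few genes were changed. That test does not cover data in which 51% of the genes tested are called. Alternatives covered pseudocount, filter, scaling, variance trend, a replicate block, edgeR 4.0.16 and DESeq2 1.42.0 on recovered reads, thresholds and each library left out in turn.

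The 9 genes and the lists were chosen with earlier results of these data known. Text names the 9 genes, Sox9, in each related list the 4 genes with the highest mean and called genes opposite to its median, and the 3 nearest profiles of each of the 9. Clcn2, Gfap and Gja1 are named in addition, with their values already known, and some genes under this rule are not reported here. Symbols gave coordinates in RefSeq GRCm38.p6, exon lengths came from GENCODE, and promoters from RefSeq, with 7 of the 9 genes in that table. Libraries are single mice, and p-values set the difference between the groups against the spread between mice.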

Additional observations from a re-analysis of the deposited data

How the results depend on the processing

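All 9 endfoot genes kept their direction and their call in all 153 values under the 17 planned fits (9 genes each), which included edgeR, DESeq2 and each library left out. Their median stayed between −3.26 and −3.06 with each library left out and was −3.44 with libraries scaled to the same total, −3.52 with that total taken without Rn45s and −3.64 after quantile normalization. These scalings shifted the median of all genes tested by −0.23, −0.31 and 0.27. The share of called genes that were lower, 56.4%, became 67.8%, 71.5% and 43.2%. Over all genes tested, 4090 were called higher in the main fit, 2630 without Rn45s in the total and 2514 at 2-fold. Rn45s held between 14.2% (Sox9 KO replicate 3) and 22.4% (control replicate 1) of the reads on genes. Of the other named genes, 1069 of 1105 values kept direction and call.

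Scaling to astrocyte markers, added after the data had been seen, left 1 endfoot gene lower and 4 higher, with a median of 0.19. It turned Aqp4 (0.12), Slc4a4 (0.19), Dag1 (1.30), Dmd (0.65), Lama2 (0.71) and Agrn (1.34). By construction it removes the change that the markers share.

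Of the related genes, 10 were called higher after quantile normalization, 9 with no fold threshold and 4 to 7 with 1 library left out. Aqp3, near 0 in 5 libraries, turned to 0.23 with a pseudocount of 5, to 1.89 in edgeR and to 1.96 in DESeq2, and ran from −2.61 to 0.40 with 1 library left out. The log2 ratio of Dag1 to Agrn ran from −0.15 to 0.013. Single settings other than a left-out library moved calls of Utrn and Sgcb (to lower, under the 3 scalings), Sntb2, Tmem5, Hepacam2, Large and Aqp1, with their directions kept. The endothelial marker sum turned to 0.068 under quantiles. Beyond the construction of these settings, the cause was not tested.

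With a replicate block, 9 of 9 endfoot genes stayed lower, and 5227 genes in all were lower and 4048 higher. Among the related genes 60 were then lower and 6 higher. Same-numbered libraries did not deviate together (correlations −0.05, −0.01 and −0.01), no library correlated best with its own number, and the numbers are not given as a pairing. Depth did not limit the 9 genes, while genes under 10 normalized counts, such as most aquaporins, rest on few reads.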
